A study of Mus musculus with 10 samples.

Results

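Primordial germ cell-like cells (PGCLCs) induced from parthenogenetic embryonic stem cells (pESC-PGCLCs) were compared with PGCLCs induced from embryonic stem cells of fertilized embryos (ESC-PGCLCs). The comparison used 4 of the 10 RNA-seq libraries of the series, 2 per group. Genes with at least 1 TPM (the share of transcripts scaled to a fixed total per library) in at least 2 of these 4 libraries were kept, which left 14959 of 36066 genes in the table. Both stem cell types were of C57BL6 background. Per the study's methods, embryos for both came from mice carrying an Actin-GFP transgene. The ESCs, labelled female, came from fertilized embryos, and the parthenogenetic cells from oocytes activated with strontium, so that their genome is maternal only. Both cell types were turned into epiblast-like cells with bFGF, activin A and serum replacement over 2 days, and then into PGCLCs with 500 ng/mL BMP4 plus SCF, EGF and LIF over 4 days. Per the study's methods, PGCLCs were then sorted as double positive for SSEA1 and CD61. The other 6 libraries were of ESCs, pESCs and primordial germ cells (PGCs) whose embryonic day the labels do not give. They entered the fit for their spread and are quoted only as context. The labels do not say whether the 2 libraries of a group came from separate lines or inductions, so the p-values measure only the spread between these libraries, which may be technical.

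Primordial germ cells are the embryonic founders of eggs and sperm. They are set aside from the epiblast by BMP signalling through Prdm1, Prdm14 and Tfap2c, regain part of the pluripotency network, erase DNA methylation including imprints, and later switch on Dazl, Ddx4 and, in the female gonad, the meiotic genes that Stra8 licenses. Parthenogenetic cells carry 2 maternal copies of every imprinted locus. Where imprints hold, genes read only from the paternal copy would be reduced at the start and genes read only from the maternal copy read from both alleles.

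Differences are pESC-PGCLC minus ESC-PGCLC on the log2(TPM + 1) scale, with the standard error from limma and 2 libraries per group throughout. This scale understates changes of genes near 1 TPM. Genes counted as called had a limma p, adjusted over all genes tested by Benjamini-Hochberg, under 0.05 together with a change of at least 2-fold. A gene can pass the filter through the libraries of 1 group alone, and it can then only come out higher in that group. Called genes of this kind include Plac1, Pou5f1, Gata4, Acta2, Nr5a1, Sgce, Dhrs3, Lefty2, Phgdh and Nupr1 through pESC-PGCLCs. The short RNA loci Mir7653, Mir6357, Mir7658, Snord34 and Mir20b passed in the same way. Hspa1a and Hspa1b passed through ESC-PGCLCs. An exact permutation of 2 against 2 libraries cannot go below p = 0.333, so the calls rest on the model across genes. Of 14959 genes, 2894 (19.3%) were called higher and 893 (5.97%) lower in pESC-PGCLCs. The groups did not overlap in 78.5% of genes (55.2% higher and 23.2% lower in pESC-PGCLCs), so that a lack of overlap is no result by itself. These shares are the background against which each gene list below is to be read.

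The distribution as a whole was shifted. The median difference of all genes was 0.32, and it was -0.04 after each library was centred on its median over the 11510 genes with at least 1 TPM in all 4 libraries. After centring, 1607 genes (10.7%) were called higher and 1503 (10%) lower. A median-of-ratios scaling gave 1872 (12.5%) and 1283 (8.58%), and quantile normalization gave 1778 (11.9%) and 1505 (10.1%). The split of calls thus moved from mostly higher to near balance with the scaling, and values are given below both as deposited and after centring.

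The difference also moved with base composition. Its median rose from -0.13 among transcripts of at most 40% GC to 0.80 among those above 60% GC, and the share called higher rose from 4.71% to 38.4%. This dependence was strongest in the ESC-PGCLC libraries, where the level against the gene mean over all 10 libraries correlated with GC content at r = -0.31 and -0.28 across genes. In the other 8 libraries r lay between -0.07 and 0.16. Exon length moved with it too, with a median of 0.03 at up to 500 nt, 0.67 between 1000 and 2000 nt and 0.05 above 8000 nt. The ESC-PGCLC libraries were also the shallowest, with 7697694 and 6779838 reads recovered from the TPM values against 14807827 and 16704568 in the pESC-PGCLC libraries. The part that depth had in the differences was not tested. After a GC correction chosen with the data in view (a smooth curve of each library's deviation on GC content was subtracted), 1377 genes (9.27%) were called higher and 1425 (9.59%) lower. Calls made in the same direction in all 5 fits, namely as deposited, under 3 scalings and after GC correction, numbered 1176 higher (7.86%) and 827 lower (5.53%). Below, "in all 5 fits" refers to these. Counts of calls after centring are to be read against 10.7% higher and 10% lower of all genes. Those after GC correction are to be read against 9.27% and 9.59%.

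**Figure D1:**
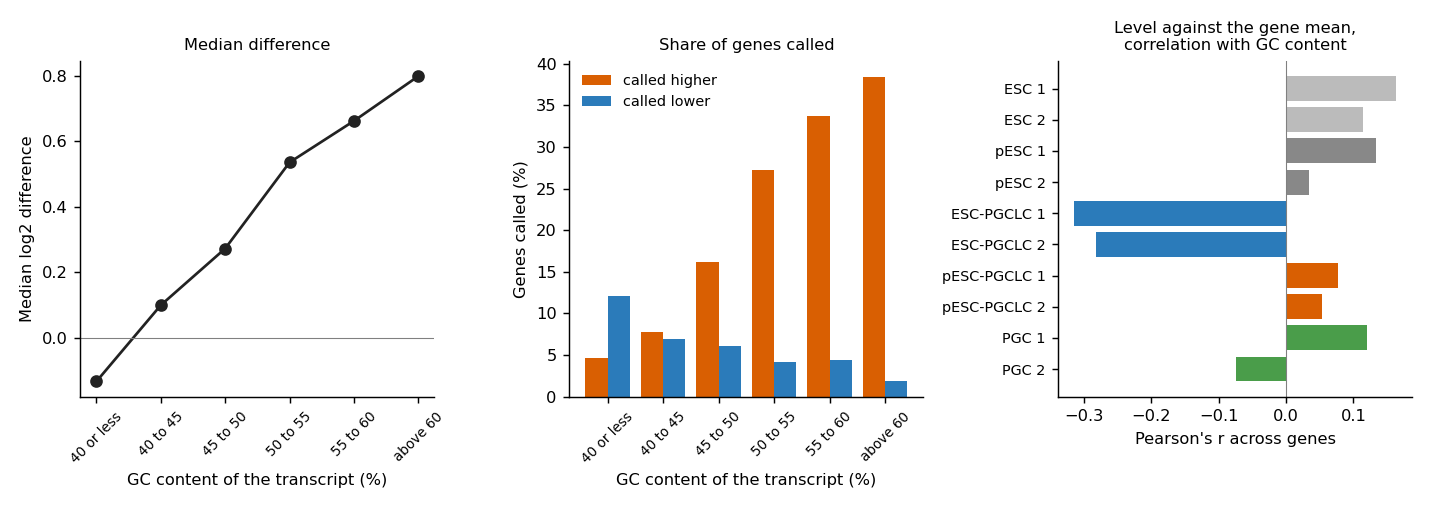
Left, median log2 difference (pESC-PGCLC minus ESC-PGCLC) of genes binned by the GC content of their longest transcript; middle, percent of genes in each bin called higher or lower; right, Pearson's r across genes between GC content and a library's log2 level minus the mean of all 10 libraries. The median climbs from -0.13 to 0.80 across the bins, and the 2 ESC-PGCLC libraries alone have r near -0.3.

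All 16 PGC specification and early PGC genes passed the filter. Dppa3, a maternal factor re-expressed in PGCs, stood at 5628 and 5681 TPM in ESC-PGCLCs against 4938 and 4548 TPM in pESC-PGCLCs. Nanos3, an RNA-binding protein needed for PGC survival, stood at 38.5 and 34.3 TPM in ESC-PGCLCs against 64 and 71.9 TPM in pESC-PGCLCs and was not called (difference 0.88 ± 0.28, adjusted p = 0.0315, limma). Prdm1, the repressor that starts the PGC programme, was at 10.9 and 10.4 TPM in ESC-PGCLCs against 8.71 and 10.4 TPM in pESC-PGCLCs, and its partner Tfap2c at 11.3 and 11.2 TPM in ESC-PGCLCs against 7.44 and 8.9 TPM in pESC-PGCLCs. These levels differed by -0.15 ± 0.17 and -0.42 ± 0.21 and were not called, although Tfap2c was called lower after GC correction (-1.0). The gene of the sort marker CD61 was close in the 2 groups. Itgb3, which encodes CD61, was at 4.38 and 4.41 TPM in ESC-PGCLCs against 4.18 and 3.91 TPM in pESC-PGCLCs. Fut4, a fucosyltransferase gene, was at 6.97 and 6.09 TPM in ESC-PGCLCs against 5.1 and 5.03 TPM in pESC-PGCLCs. The receptor gene Kit was at 11.7 and 12.2 against 11.3 and 10.4 TPM in the same order.

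Of these 16 genes 3 were called higher and none lower (18.75% and 0%, against 19.3% and 5.97% of all genes). The list median was 0.03 as deposited, -0.33 after centring and -0.43 after GC correction. Sall4, a zinc finger factor shared by germ cells and pluripotent cells, stood at 20.5 and 20.9 TPM in ESC-PGCLCs against 52.7 and 68.4 TPM in pESC-PGCLCs (difference 1.49 ± 0.18, adjusted p = 0.000323, limma). Ifitm3, a surface marker of early PGCs, stood at 332 and 299 TPM in ESC-PGCLCs against 839.8 and 815 TPM in pESC-PGCLCs (difference 1.39 ± 0.43, adjusted p = 0.028, limma). Alpl, the tissue-nonspecific alkaline phosphatase long used to stain PGCs, stood at 4.64 and 4.2 TPM in ESC-PGCLCs against 11.1 and 12.4 TPM in pESC-PGCLCs (difference 1.24 ± 0.29, adjusted p = 0.00893, limma). None of the 3 was called after GC correction, and Ifitm3 and Alpl were not called after centring. Calls were also lost on leaving out 1 library, for Ifitm3 without ESC-PGCLC replicate 1 (1.46) or ESC-PGCLC replicate 2 (1.32) or pESC-PGCLC replicate 1 (1.37) or pESC-PGCLC replicate 2 (1.41) and Alpl without ESC-PGCLC replicate 2 (1.18) or pESC-PGCLC replicate 2 (1.16). The list median lay below that of all genes as deposited, after centring and after GC correction.

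Among the later germline genes, Dazl, an RNA-binding protein that licenses germ cells, was at 1664 and 1821 TPM in ESC-PGCLCs against 1084 and 1115 TPM in pESC-PGCLCs, and Ddx4, the germ cell helicase also called Vasa, at 259.6 and 281 TPM in ESC-PGCLCs against 186 and 191 TPM in pESC-PGCLCs. Both were lower on average in pESC-PGCLCs and neither was called (difference -0.66 ± 0.19, adjusted p = 0.0236 and difference -0.52 ± 0.28, adjusted p = 0.167, limma), but Dazl was called lower after centring (-1.02). In ESCs and pESCs Dazl lay at 13.4 and 15.4 TPM on average, so its level in both PGCLC groups exceeded that of the stem cells. The PGC libraries held 2027 TPM of Dazl and 246 TPM of Ddx4 on average. Of 18 members tested 2 were called higher and none lower (11.1% and 0%, against 19.3% and 5.97% of all genes). The list median was 0.20 as deposited, -0.16 after centring and 0.09 after GC correction. Both calls were made in all 5 fits. Tex101, a germ cell surface protein, stood at 9.39 and 11.3 TPM in ESC-PGCLCs against 73.4 and 54.9 TPM in pESC-PGCLCs (difference 2.51 ± 0.24, adjusted p = 0.00012, limma), with the PGC libraries at 50.5 and 40.2 TPM. Tex19.1, which restrains retrotransposons in germ cells, stood at 15.9 and 14.3 TPM in ESC-PGCLCs against 56 and 54.9 TPM in pESC-PGCLCs (difference 1.81 ± 0.17, adjusted p = 0.000115, limma). The ESC libraries held 65.9 and 52.8 TPM and the pESC libraries 28.6 and 31.6 TPM, so Tex19.1 was lower than in the stem cells in ESC-PGCLCs and higher in pESC-PGCLCs.

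Of 24 meiosis genes tested 1 was called higher and 2 lower (4.17% and 8.33%, against 19.3% and 5.97% of all genes). The list median was 0.01 as deposited, -0.35 after centring and -0.18 after GC correction. Sycp3, a core protein of the synaptonemal complex axis, stood at 1702 and 1651 TPM in ESC-PGCLCs against 867 and 685 TPM in pESC-PGCLCs (difference -1.12 ± 0.24, adjusted p = 0.00578, limma), which is lower in both pESC-PGCLC libraries. Sycp1, which forms the transverse filaments of the same complex, stood at 40.5 and 41.5 TPM in ESC-PGCLCs against 18.3 and 19 TPM in pESC-PGCLCs (difference -1.09 ± 0.15, adjusted p = 0.000694, limma). Rec8, the meiotic cohesin subunit, went the other way, at 6.73 and 6.7 TPM in ESC-PGCLCs against 21 and 20.9 TPM in pESC-PGCLCs (difference 1.51 ± 0.20, adjusted p = 0.000558, limma). Stra8, the retinoic acid-induced licensing factor for meiosis, was at 192 and 212 TPM in ESC-PGCLCs against 409.9 and 359 TPM in pESC-PGCLCs and just under the 2-fold threshold (difference 0.93 ± 0.17, adjusted p = 0.00291, limma). The PGC libraries held 820 TPM of Sycp3 and 338 TPM of Stra8 on average. The transcripts that fell are poor in GC (34.3% for Sycp3 and 34.6% for Sycp1) and the one that rose is rich in it (56.7% for Rec8). After GC correction none of Sycp3, Sycp1 and Rec8 was called, with differences of -0.78, -0.77 and 0.81. The call was also lost for Sycp3 without pESC-PGCLC replicate 2 (-0.95). Sycp3 overlaps Chpt1 on the opposite strand, which was called lower too.

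**Figure D2:**
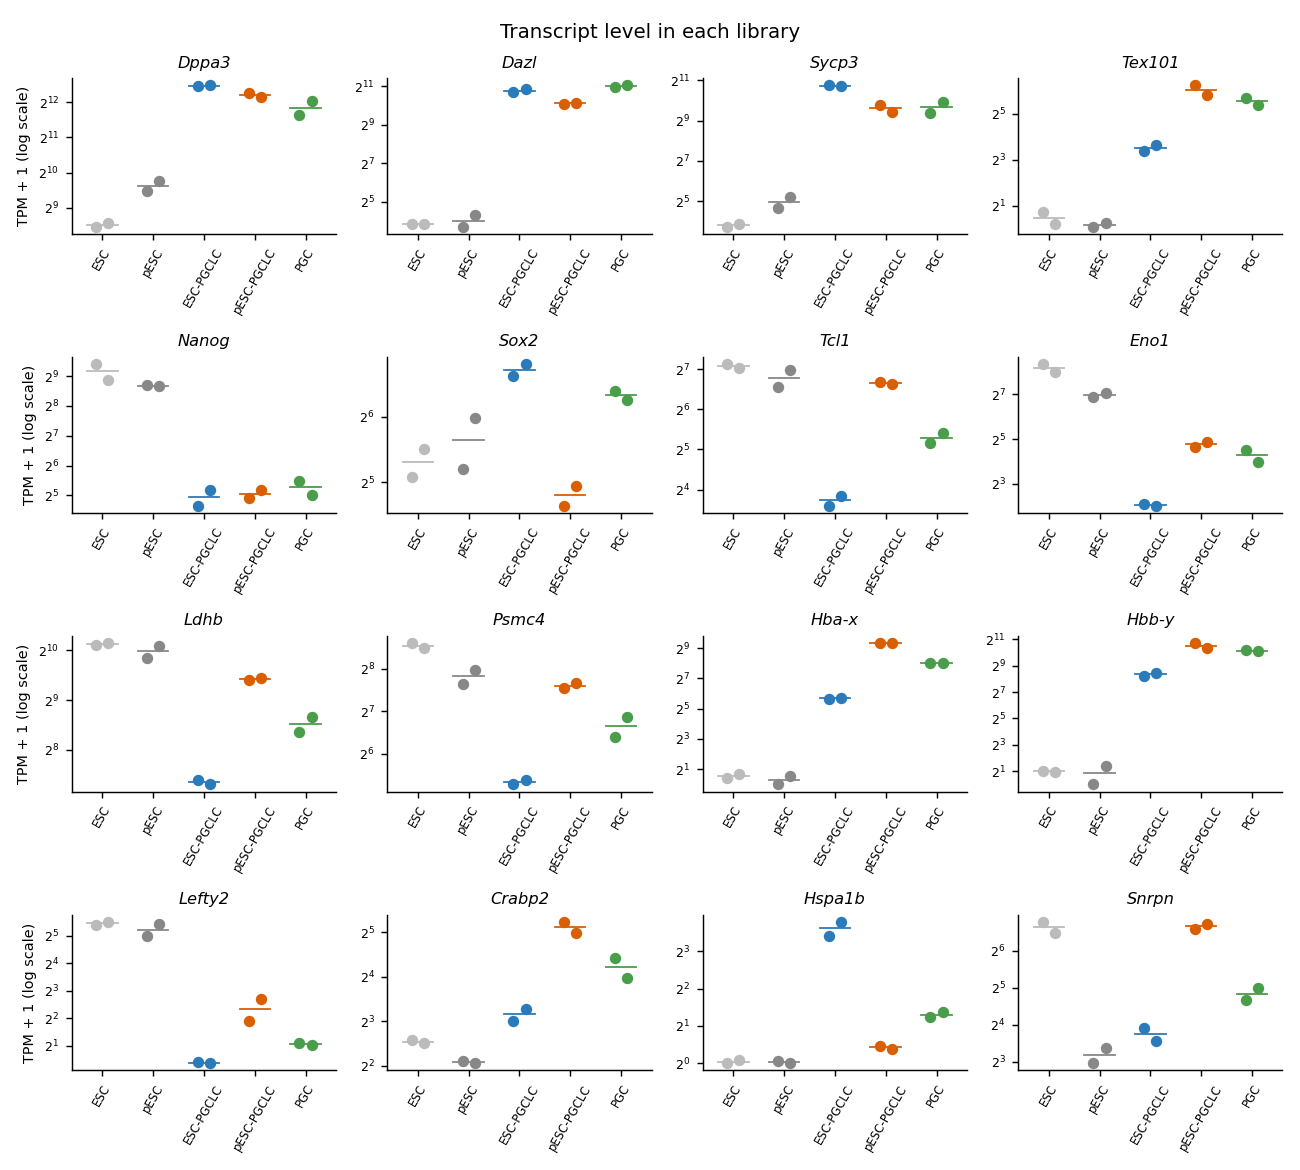
TPM + 1 on a log scale for 16 genes in each of the 10 libraries (points) with the group mean (line), for ESC, pESC, ESC-PGCLC, pESC-PGCLC and PGC. Dppa3, Dazl and Sycp3 are above the stem cells in both PGCLC groups; Tex101, Tcl1, Eno1, Ldhb, Psmc4, Hba-x, Hbb-y, Lefty2, Crabp2 and Snrpn are higher and Sox2 and Hspa1b lower in pESC-PGCLCs; Nanog overlaps.

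Of 18 pluripotency genes tested 7 were called higher and 1 lower (38.9% and 5.56%, against 19.3% and 5.97% of all genes). Calls numbered 4 higher and 2 lower after centring and 3 higher and 4 lower after GC correction. The list median was 0.47 as deposited, 0.12 after centring and 0.26 after GC correction. Tcl1, a coactivator of Akt signalling that is abundant in naive stem cells and eggs, had the largest change of the list, from 11.2 and 13.4 TPM in ESC-PGCLCs to 102 and 97.5 TPM in pESC-PGCLCs (difference 2.93 ± 0.19, adjusted p = 3.71e-05, limma). Of Tcl1 the ESC libraries held 138 and 130.4 TPM, the pESC libraries 92.9 and 126 TPM and the PGC libraries 34.6 and 41.8 TPM. The pESC-PGCLCs thus lay within the range of the 2 pESC libraries. Sox2 fell, from 97.3 and 110.5 TPM in ESC-PGCLCs to 23.9 and 29.7 TPM in pESC-PGCLCs (difference -1.92 ± 0.27, adjusted p = 0.000705, limma). Both calls were made in all 5 fits. Nanog overlapped between the groups, at 24.2 and 35 TPM in ESC-PGCLCs against 28.8 and 35.1 TPM in pESC-PGCLCs (difference 0.12 ± 0.26, adjusted p = 0.729, limma). It held 572 TPM on average in ESCs and 408 TPM in pESCs.

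Pou5f1, which encodes Oct4, was at 0.374 and 0 TPM in ESC-PGCLCs against 2.98 and 2.88 TPM in pESC-PGCLCs (difference 1.75 ± 0.25, adjusted p = 0.000814, limma) and was called higher in all 5 fits. Its absolute level is uncertain, since Pou5f1 has near-identical pseudogenes, how shared reads were counted is not stated, and ESCs held only 21.2 TPM on average. Gdf3, a TGF-beta family ligand of pluripotent cells, stood at 6.33 and 7.5 against 18.7 and 19.5 TPM in ESC-PGCLCs and pESC-PGCLCs (difference 1.35 ± 0.16), and the call was lost after centring (0.99) and after GC correction (0.93). The other 4 members called higher were Tdgf1 (difference 1.51 ± 0.33), the chromatin-associated factors Dppa4 (1.24 ± 0.21) and Utf1 (1.32 ± 0.29) and the nuclear receptor gene Nr0b1 (1.37 ± 0.35). The calls were lost for Tdgf1 without ESC-PGCLC replicate 2 (1.25) or pESC-PGCLC replicate 2 (1.0), Utf1 without pESC-PGCLC replicate 2 (1.17) and Nr0b1 without ESC-PGCLC replicate 1 (1.36) or ESC-PGCLC replicate 2 (1.39) or pESC-PGCLC replicate 2 (0.78). Of the formative and primed epiblast genes, Fgf5, Otx2 and Pou3f1 reached at most 1.1 TPM in any of the 4 libraries, and none of the 5 members tested was called. The de novo methyltransferase genes Dnmt3a (2.2 and 2.32 against 3.1 and 3.25 TPM) and Dnmt3b (0.865 and 0.674 against 1.26 and 1.29 TPM) differed by 0.36 ± 0.16 and 0.37 ± 0.19.

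Among signalling readouts, BMP targets and ERK feedback genes lay below the general shift and retinoic acid genes above it. Of 10 BMP target genes none was called higher and 3 were called lower (0% and 30%, against 19.3% and 5.97% of all genes). Their median was -0.31 as deposited, -0.66 after centring and -0.77 after GC correction. Smad7, the inhibitory Smad that BMP and TGF-beta induce, stood at 6.23 and 8.64 TPM in ESC-PGCLCs against 2.13 and 2.89 TPM in pESC-PGCLCs (difference -1.26 ± 0.25, adjusted p = 0.0042, limma). The helix-loop-helix inhibitor Id4 stood at 26.8 and 30.6 TPM in ESC-PGCLCs against 13.6 and 11.7 TPM in pESC-PGCLCs (difference -1.12 ± 0.17, adjusted p = 0.00115, limma) and the homeobox gene Msx1 at 23.8 and 25.1 TPM in ESC-PGCLCs against 11.8 and 10.9 TPM in pESC-PGCLCs (difference -1.04 ± 0.17, adjusted p = 0.00138, limma). All 3 were called in all 5 fits, though the call was lost for Msx1 without pESC-PGCLC replicate 2 (-0.99). Id1 and Id3, the classical immediate targets, were not called and took opposite signs (-0.23 ± 0.24 and 0.67 ± 0.23).

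Of 11 FGF and ERK feedback genes none was called higher and 1 lower (0% and 9.09%, against 19.3% and 5.97% of all genes). This was Spry2, which fell from 293 and 387 TPM in ESC-PGCLCs to 106 and 201 TPM in pESC-PGCLCs (difference -1.20 ± 0.30, adjusted p = 0.0117, limma). The call was lost for Spry2 without ESC-PGCLC replicate 2 (-1.0) or pESC-PGCLC replicate 1 (-0.74). The phosphatase genes Dusp6 and Dusp4 differed by -0.48 ± 0.20 and -0.83 ± 0.18 and were not called as deposited, while Dusp4 was called lower after centring (-1.18) and after GC correction (-1.52). The list median was -0.48 as deposited, -0.83 after centring and -0.99 after GC correction. Of the Nodal, activin and TGF-beta genes tested, 4 of 10 were called higher and 2 lower (40% and 20%, against 19.3% and 5.97% of all genes). The median was 0.76 as deposited, 0.41 after centring and 0.26 after GC correction. Lefty2, a Nodal target and feedback inhibitor, stood at 0.322 and 0.282 TPM in ESC-PGCLCs against 2.74 and 5.45 TPM in pESC-PGCLCs (difference 1.92 ± 0.26, adjusted p = 0.00062, limma), with the ESC libraries at 41.2 and 44.2 TPM. Lefty1 stood at 0.718 and 0.699 against 1.34 and 2.54 TPM and was not called (0.75 ± 0.29). The Nodal coreceptor gene Tdgf1 went from 1.36 and 0.656 to 2.96 and 6.97 TPM, and Tgfbi, an extracellular TGF-beta target, differed by 1.35 ± 0.18. Smad7 and Skil, a Smad corepressor (215 and 232 against 82.6 and 107 TPM, difference -1.24 ± 0.24), fell. Nodal itself reached at most 0.913 TPM.

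Retinoic acid genes were called higher in 4 of 7 members tested and lower in none (57.1% and 0%, against 19.3% and 5.97% of all genes). Their median was 1.06 as deposited, 0.71 after centring and 0.50 after GC correction. Crabp2 and Crabp1, which carry retinoic acid in the cell, stood at 7 and 8.73 TPM in ESC-PGCLCs against 36.5 and 30.5 TPM in pESC-PGCLCs (difference 1.96 ± 0.20, adjusted p = 0.000154, limma) and at 9.44 and 15.6 TPM in ESC-PGCLCs against 46.6 and 43.6 TPM in pESC-PGCLCs (difference 1.81 ± 0.37, adjusted p = 0.00472, limma), and both were called in all 5 fits. Dhrs3, a retinaldehyde reductase induced by retinoic acid, went from 0 and 0.252 to 2.33 and 2.03 TPM (1.51 ± 0.26) and was not called after GC correction. Cyp26a1, Rarb and Stra6 reached at most 0.97 TPM. None of 14 Wnt ligands and targets was called, Axin2 (-0.28 ± 0.25) and Lef1 (-0.53 ± 0.29) included. Of the 35 Hox genes measured, 2 passed the filter, Hoxd1 (-0.22 ± 0.25) and Hoxd8 (0.35 ± 0.26), and neither was called.

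Haemoglobin genes were higher in pESC-PGCLCs. Of 9 blood and endothelium genes tested 7 were called higher and none lower (77.8% and 0%, against 19.3% and 5.97% of all genes). These were all 7 globins on the list, each called in all 5 fits. The list median was 2.16 as deposited, 1.80 after centring and 1.78 after GC correction. The embryonic alpha-like globin Hba-x (chr11:32276400-32278116, mm10) stood at 49.5 and 51.9 TPM in ESC-PGCLCs against 636 and 639.9 TPM in pESC-PGCLCs (difference 3.63 ± 0.21, adjusted p = 2.54e-05, limma). Hba-a1 stood at 97.9 and 104 TPM in ESC-PGCLCs against 933 and 814 TPM in pESC-PGCLCs (difference 3.10 ± 0.39, adjusted p = 0.000453, limma), and its near-identical copy Hba-a2, with which it shares reads, at 4.73 and 6.26 against 48.1 and 37.3 TPM (difference 2.75 ± 0.28). The embryonic beta-like globins Hbb-y (300.2 and 353 against 1664 and 1274 TPM, difference 2.16 ± 0.38) and Hbb-bh1 (5.49 and 6.41 against 40.2 and 32.4 TPM, difference 2.42 ± 0.28) and the adult Hbb-bs (1.51 ± 0.16) and Hbb-bt (1.49 ± 0.18) rose with them.

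The PGC libraries held 258 TPM of Hba-x on average, and the ESC and pESC libraries 0.487 and 0.246 TPM. Among the other members tested, Lmo2 (-0.09 ± 0.21) and Pecam1 (0.35 ± 0.28) were not called. The erythroid regulators Gata1 and Klf1 reached at most 0.53 and 1.15 TPM in any of the 4 libraries, Tal1 0.0728 TPM and the pan-leukocyte gene Ptprc 0.0812 TPM. The summed level of the list was 503 and 575 TPM in ESC-PGCLCs against 3452 and 2918 TPM in pESC-PGCLCs. In such bulk samples, fewer cells of a type and less RNA per cell cannot be told apart.

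Trophoblast markers were called higher in 3 of 5 members tested and lower in none (60% and 0%, against 19.3% and 5.97% of all genes). Their median was 1.69 as deposited, 1.33 after centring and 0.98 after GC correction. The 3 called were the simple-epithelial keratins Krt18 (4.1 and 5.81 against 22.9 and 24.4 TPM, difference 2.06 ± 0.19) and Krt8 (2.15 and 2.38 against 9.9 and 9.17 TPM, difference 1.69 ± 0.17) and the X-linked placental gene Plac1 (0.151 and 0.176 against 2.53 and 3.58 TPM, difference 1.79 ± 0.26). Krt18 and Plac1 kept the call in all 5 fits, but Plac1 passed the filter through its pESC-PGCLC libraries alone and could only be higher there. Gata3 was not called (-0.42 ± 0.25), and the trophoblast genes Elf5, Tpbpa, Prl3d1 and Prl3b1 reached at most 0.243 TPM. Krt8 and Krt18 are also made by other simple epithelia. Of 10 other epithelial genes tested 3 were called higher and none lower (30% and 0%, against 19.3% and 5.97% of all genes). The list median of 0.30 as deposited was close to the 0.32 of all genes. The 3 were the claudins Cldn6 (4.61 and 3.1 against 14.4 and 10.1 TPM, difference 1.45 ± 0.28) and Cldn7 (1.39 ± 0.19) and the polarity gene Crb3 (1.42 ± 0.30). None of the 3 was called after GC correction. Cdh1 and Epcam, the leading epithelial adhesion genes, differed by -0.42 ± 0.22 and 0.38 ± 0.15 without a call. No mesenchymal gene of 7 was called, with Vim at 0.70 ± 0.19 and Cdh2 at -0.23 ± 0.19.

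No primitive streak gene of 7 tested was called, with T at 1.18 and 0.955 against 1.01 and 0.78 TPM (difference -0.12 ± 0.28) and Mixl1 at 1.74 and 2.04 against 1.02 and 1.44 TPM (difference -0.38 ± 0.21). Of 8 lateral and extraembryonic mesoderm genes 1 was called higher and 1 lower (12.5% each, against 19.3% and 5.97% of all genes). Gata4 rose (0.485 and 0.818 against 4.24 and 3.1 TPM, difference 1.5 ± 0.22), a call that was lost after GC correction (0.78), and Msx1 fell. Bmp4 (0.81 ± 0.23) and Tbx4 (-1.25 ± 0.47) were not called. Tbx4 was called lower after centring (-1.60) and after GC correction (-1.88). Of 8 endoderm genes 2 were called higher and none lower (25% and 0%, against 19.3% and 5.97% of all genes). Foxa2 (-0.58 ± 0.27) and Foxa1 (-0.12 ± 0.17) were not called as deposited, and Apoa2 (0 and 1.37 against 1.75 and 4.35 TPM, difference 1.32 ± 0.41) and Lama1 (1.02 ± 0.22) rose. The calls of both were lost after centring, and for Apoa2 without ESC-PGCLC replicate 1 (0.69) or pESC-PGCLC replicate 2 (0.84) and Lama1 without ESC-PGCLC replicate 2 (0.80) or pESC-PGCLC replicate 1 (0.96). None of 4 ectoderm genes was called as deposited. Pax6 was at 5.39 and 6.64 against 2.92 and 2.18 TPM (-0.98 ± 0.18) and was called lower after centring (-1.34), and Map2 differed by 0.08 ± 0.17.

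Markers of gonadal somatic cells and of fibroblasts were also measured. The study's methods describe mixing PGCLCs with gonadal somatic cells only after the sort. The summed level of the gonadal somatic cell genes was 25.1 and 30.7 TPM in ESC-PGCLCs against 52.7 and 46.9 TPM in pESC-PGCLCs, and the median difference was 0.67 as deposited, 0.32 after centring and 0.35 after GC correction. Of 7 members tested 2 were called higher and none lower (28.6% and 0%, against 19.3% and 5.97% of all genes). Amhr2, the anti-Müllerian hormone receptor, rose from 1.26 and 2.33 to 9.96 and 8.22 TPM (1.87 ± 0.22), and Nr5a1, the steroidogenic master regulator, from 0.0991 and 0.348 to 1.55 and 1.83 TPM (1.14 ± 0.26), while Wt1 was not called (0.59 ± 0.17). Of these, Amhr2 was called in all 5 fits, and the call was lost for Nr5a1 without ESC-PGCLC replicate 1 (1.0). Foxl2 and Cyp11a1 reached at most 0.397 TPM. The fibroblast genes summed to 8.89 and 9.27 TPM in ESC-PGCLCs against 18.8 and 15.8 TPM in pESC-PGCLCs, with a median difference of 0.59 as deposited, 0.23 after centring and 0.10 after GC correction. Of 7 tested 1 was called higher and none lower (14.3% and 0%, against 19.3% and 5.97% of all genes). This was the smooth muscle actin Acta2 (0.236 and 0 against 1.58 and 1.49 TPM, difference 1.19 ± 0.18), which was not called after centring. Col3a1 (0.59 ± 0.17) and Col5a2 (0.52 ± 0.18) were not called. The part that cells other than PGCLCs had in the differences above was not tested.

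**Figure D3:**
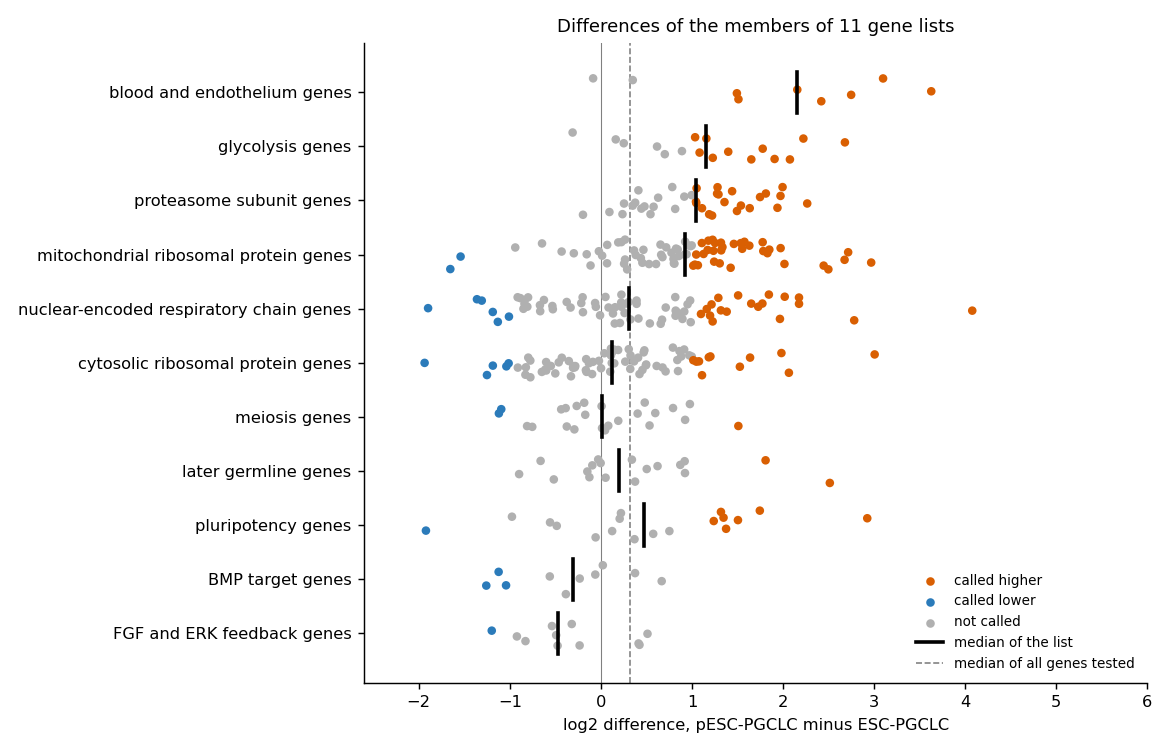
Each point is a gene, placed by its log2 difference (pESC-PGCLC minus ESC-PGCLC) and coloured by its call, for 11 gene lists. Black bars are list medians and the dashed line is the median of all genes tested (0.32). Glycolysis, proteasome and mitochondrial ribosomal protein genes lie mostly to the right of the line; meiosis, BMP target and FGF feedback genes lie around or to the left of it.

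Glycolysis genes were higher in pESC-PGCLCs. Of 17 members tested 11 were called higher and none lower (64.7% and 0%, against 19.3% and 5.97% of all genes). The list median was 1.16 as deposited, 0.80 after centring and 0.48 after GC correction, and calls numbered 7 higher and 0 lower after centring and 5 higher and 0 lower after GC correction, where Aldoa had no GC value. Eno1, which encodes enolase (chr4:150236721-150248879, mm10), stood at 3.32 and 3.11 TPM in ESC-PGCLCs against 23.8 and 28.4 TPM in pESC-PGCLCs (difference 2.68 ± 0.22, adjusted p = 6.77e-05, limma). Triosephosphate isomerase, Tpi1, stood at 6.19 and 5.98 TPM in ESC-PGCLCs against 30.7 and 33.5 TPM in pESC-PGCLCs (difference 2.22 ± 0.16, adjusted p = 4.24e-05, limma). The lactate dehydrogenase subunit genes Ldhb and Ldha stood at 168 and 157 TPM in ESC-PGCLCs against 677 and 697 TPM in pESC-PGCLCs (difference 2.08 ± 0.16, adjusted p = 5.36e-05, limma) and at 33 and 35.9 TPM in ESC-PGCLCs against 96.2 and 88.7 TPM in pESC-PGCLCs (difference 1.40 ± 0.15, adjusted p = 0.000212, limma). All 4 were higher in both pESC-PGCLC libraries than in either ESC-PGCLC library, but Eno1, Tpi1 and Ldhb were named under a rule that required this.

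Enzymes from the trunk of the pathway followed, with Pgam1 at 16.2 and 18.7 against 56.4 and 68.1 TPM (1.78 ± 0.19), Aldoa at 19.9 and 22.6 against 80.5 and 84.1 TPM (1.91 ± 0.33), Aldoc (1.65 ± 0.21), Pgk1 at 59.6 and 68.7 against 142 and 161 TPM (1.23 ± 0.22), Pkm (1.16 ± 0.16), Gpi1 (1.08 ± 0.19) and Pfkm (1.03 ± 0.20). Eno1, Tpi1, Ldhb, Pgam1 and Aldoc were called in all 5 fits, and calls were lost for Gpi1 without ESC-PGCLC replicate 1 (0.93) and Pfkm without ESC-PGCLC replicate 2 (0.93) or pESC-PGCLC replicate 2 (0.89). Gapdh, whose many pseudogenes make its counts uncertain, was listed at only 2.49 and 2.85 against 4.26 and 5.01 TPM and was not called (0.62 ± 0.26). The glucose transporter genes Slc2a1 and Slc2a3, the hexokinase gene Hk2 and the phosphofructokinase genes Pfkl and Pfkp were not called either. Of Eno1 the ESC and pESC libraries held 286 and 124 TPM on average, and of Ldhb 1116 and 1008 TPM, so that for these transcripts both PGCLC groups lay below the stem cells.

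Of 15 hypoxia targets tested 2 were called higher and none lower (13.3% and 0%, against 19.3% and 5.97% of all genes). These were the peptide hormone gene Adm (1.43 and 0.911 against 7.62 and 6.04 TPM, difference 1.85 ± 0.24) and the prolyl hydroxylase subunit P4ha1 (1.01 ± 0.20), whose call was lost after centring. The call was also lost for P4ha1 without ESC-PGCLC replicate 2 (0.88) or pESC-PGCLC replicate 1 (0.96). Vegfa (-0.62 ± 0.36) and Bnip3 (0.54 ± 0.20) were not called, and the list median was 0.41 as deposited, 0.06 after centring and -0.11 after GC correction. Of 75 nuclear-encoded respiratory chain genes 19 were called higher and 6 lower (25.3% and 8%, against 19.3% and 5.97% of all genes), and the list median of 0.31 as deposited, -0.05 after centring and -0.13 after GC correction was close to that of all genes. Uqcrc1, a core subunit of complex III (chr9:108936633-108949623, mm10), had the largest change, at 13.6 and 10.8 TPM in ESC-PGCLCs against 195 and 249.8 TPM in pESC-PGCLCs (difference 4.08 ± 0.20, adjusted p = 2.54e-05, limma). The complex I subunit gene Ndufs7 stood at 38.4 and 40.3 TPM in ESC-PGCLCs against 284 and 269 TPM in pESC-PGCLCs (difference 2.78 ± 0.20, adjusted p = 4.57e-05, limma) and the complex II anchor Sdhd at 25.3 and 35.3 against 143 and 134 TPM (2.18 ± 0.22). All 3 were called in all 5 fits. In the other direction, the small subunit genes Cox7c (-1.90 ± 0.20), Cox6c (-1.31 ± 0.16), Ndufc1 (-1.19 ± 0.21) and Atp5j (-1.13 ± 0.22) fell in all 5 fits. The ATP synthase genes Atp5a1 (0.32 ± 0.18) and Atp5b (0.71 ± 0.14) were not called.

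Transcripts of the mitochondrial genome made up 21.1% and 21.2% of all TPM in ESC-PGCLCs and 18.8% and 21.9% in the pESC-PGCLC libraries. Of the 13 protein genes 1 was called higher and 2 lower (7.69% and 15.4%, against 19.3% and 5.97% of all genes). Their median was -0.35 as deposited, -0.71 after centring and -0.14 after GC correction. The complex I subunits mt-Nd3 (465 and 544 against 160.3 and 147 TPM, difference -1.71 ± 0.27) and mt-Nd2 (11629 and 11558 against 4072 and 4529 TPM, difference -1.43 ± 0.24) fell and mt-Nd5 (1076 and 981 against 2266 and 2795 TPM, difference 1.29 ± 0.25) rose, although all come from the same genome. The call of mt-Nd5 was lost after centring (0.94). The overlapping genes mt-Atp6 (-0.93 ± 0.15) and mt-Atp8 (-0.96 ± 0.23) were not called as deposited and were called lower after centring. These transcripts are poor in GC, with a list median of 37.1%.

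Genes of protein turnover and of mitochondrial translation were higher in pESC-PGCLCs. Of 36 proteasome subunit genes 20 were called higher and none lower (55.6% and 0%, against 19.3% and 5.97% of all genes). The list median was 1.05 as deposited, 0.69 after centring and 0.62 after GC correction, and calls numbered 11 higher and 0 lower after centring and 9 higher and 0 lower after GC correction. The ATPase subunit Psmc4 stood at 37.9 and 41 TPM in ESC-PGCLCs against 185 and 202 TPM in pESC-PGCLCs (difference 2.27 ± 0.19, adjusted p = 7.61e-05, limma), the core subunit Psma7 at 84.6 and 76.4 TPM in ESC-PGCLCs against 321 and 326 TPM in pESC-PGCLCs (difference 2.0 ± 0.17, adjusted p = 7.75e-05, limma) and the lid subunit Psmd13 at 3.36 and 2.62 against 14 and 15.2 TPM (1.97 ± 0.20). Psma1 (0.44 ± 0.19) and Psma2 (0.24 ± 0.30), of the same core ring as Psma7, were not called. The list had a median GC content of 49.4%, close to the 48.6% of all genes tested, and 9 members were called in all 5 fits.

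Of 75 mitochondrial ribosomal protein genes 33 were called higher and 2 lower (44% and 2.67%, against 19.3% and 5.97% of all genes). Their median was 0.93 as deposited, 0.57 after centring and 0.59 after GC correction, and calls numbered 17 higher and 4 lower after centring and 15 higher and 4 lower after GC correction. Mrpl4 stood at 4.02 and 4.51 TPM in ESC-PGCLCs against 41.2 and 39.1 TPM in pESC-PGCLCs (difference 2.97 ± 0.21, adjusted p = 4.24e-05, limma), Mrpl28 at 41.1 and 32.2 against 238 and 252 TPM (2.72 ± 0.18) and Mrps11 at 7.16 and 7.81 against 56.1 and 50.4 TPM (2.68 ± 0.17). Mrpl9 (-1.65 ± 0.34) and Mrpl33 (-1.54 ± 0.28) fell, and Mrpl1 (0.07 ± 0.25) and Mrpl10 (-0.30 ± 0.47) were not called. Of 76 cytosolic ribosomal protein genes 11 were called higher and 5 lower (14.5% and 6.58%, against 19.3% and 5.97% of all genes), with a median of 0.12 as deposited, -0.23 after centring and -0.32 after GC correction. The stalk protein Rplp0 stood at 234 and 227 TPM in ESC-PGCLCs against 892 and 938 TPM in pESC-PGCLCs (difference 1.98 ± 0.15, adjusted p = 4.86e-05, limma), Rps2 at 78.1 and 88.2 against 329 and 373 TPM (2.06 ± 0.20) and Rpl29 at 2.24 and 2.62 against 18.9 and 37.1 TPM (3.01 ± 0.28). Those that fell were Rpl26 (-1.94 ± 0.15), Rpl39 (-1.25 ± 0.18), Rps21 (-1.19 ± 0.17), Rpl35a (-1.04 ± 0.15) and Rpl38 (-1.01 ± 0.20), of which the last was not called in all 5 fits. Calls were lost for Rpl35a without ESC-PGCLC replicate 2 (-0.95) or pESC-PGCLC replicate 2 (-0.97) and Rpl38 without ESC-PGCLC replicate 2 (-0.89) or pESC-PGCLC replicate 2 (-0.92). Rpl10 (0.32 ± 0.18) and Rpl10a (0.12 ± 0.14) were not called. Ribosomal protein genes have many pseudogenes that share their reads, so single members are uncertain. Annotated pseudogenes of all kinds took 11.8% and 12.8% of TPM in ESC-PGCLCs and 9.03% and 8.58% in pESC-PGCLCs.

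**Figure D4:**
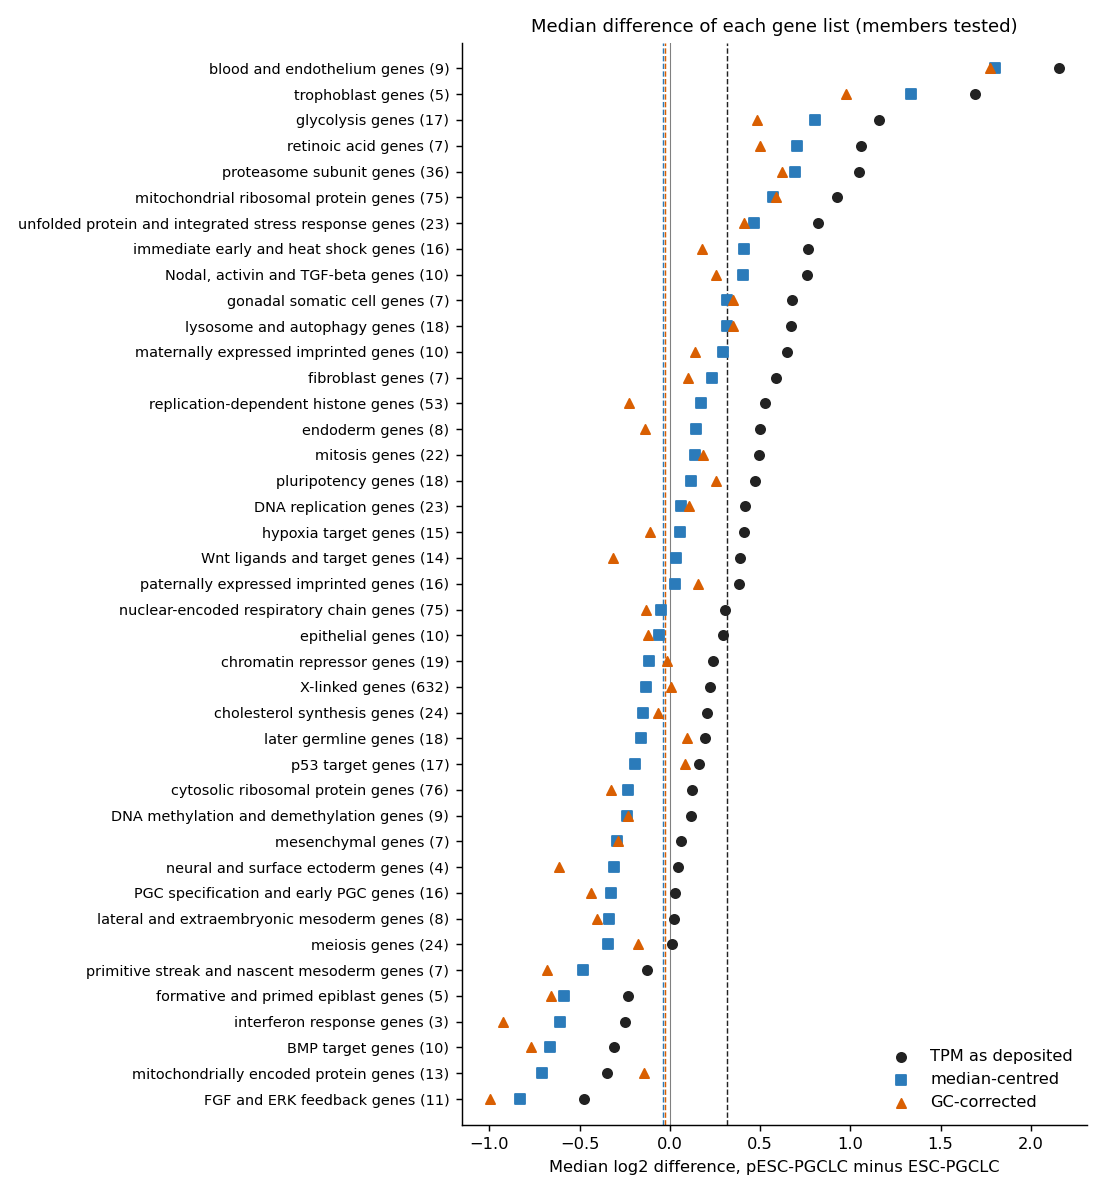
Median log2 difference (pESC-PGCLC minus ESC-PGCLC) of the 41 gene lists with at least 3 members tested, with the number of members in brackets. Circles are TPM as deposited, squares after median-centring and triangles after GC correction; dashed lines are the medians of all genes in the same 3 fits. Blood and endothelium, trophoblast, glycolysis, retinoic acid, proteasome and mitochondrial ribosomal protein genes lie highest in all 3; FGF feedback genes lie lowest in all 3.

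Of 23 unfolded protein and integrated stress response genes 7 were called higher and 2 lower (30.4% and 8.7%, against 19.3% and 5.97% of all genes), with a median of 0.82 as deposited, 0.47 after centring and 0.41 after GC correction. Phgdh, the first enzyme of serine synthesis, stood at 0.761 and 0.296 TPM in ESC-PGCLCs against 6.85 and 8.29 TPM in pESC-PGCLCs (difference 2.50 ± 0.23, adjusted p = 0.000103, limma), and asparagine synthetase, Asns, differed by 1.81 ± 0.16. Xbp1, a transcription factor of the endoplasmic reticulum stress response, stood at 4.4 and 4.77 against 19.5 and 20.5 TPM (1.91 ± 0.22), Nupr1 at 0.167 and 0.293 against 3.08 and 9.89 TPM (2.44 ± 0.38) and the amino acid transporter subunit Slc3a2 differed by 1.37 ± 0.19. The transcription factors Atf4, at 33.6 and 37.5 TPM in ESC-PGCLCs against 17.7 and 16 TPM in pESC-PGCLCs (difference -1.03 ± 0.20, adjusted p = 0.00362, limma), and Cebpb (-1.61 ± 0.41) fell, and Ddit3 was not called (-0.03 ± 0.26). The calls were lost for Atf4 without ESC-PGCLC replicate 2 (-0.96) or pESC-PGCLC replicate 2 (-0.97) and Cebpb without ESC-PGCLC replicate 2 (-1.36) or pESC-PGCLC replicate 2 (-1.13).

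The inducible heat shock genes Hspa1b and Hspa1a were far lower in pESC-PGCLCs, while Hsph1, Dnajb1 and Hspa8 were not called as deposited. Hspa1b (chr17:34956436-34959238, mm10) stood at 9.68 and 12.7 TPM in ESC-PGCLCs against 0.377 and 0.303 TPM in pESC-PGCLCs (difference -3.17 ± 0.18, adjusted p = 2.54e-05, limma), and its near-identical neighbour Hspa1a, with which it can share reads, at 7.72 and 7.62 TPM in ESC-PGCLCs against 0.356 and 0.179 TPM in pESC-PGCLCs (difference -2.78 ± 0.16, adjusted p = 2.54e-05, limma). Both calls were made in all 5 fits. The PGC libraries held 1.34 and 1.58 TPM of Hspa1b. Among the 16 immediate early and heat shock genes tested 5 were called higher and 2 lower (31.25% and 12.5%, against 19.3% and 5.97% of all genes). Those higher were Btg2 (3.22 and 2.33 against 15.4 and 15.5 TPM, difference 2.13 ± 0.20), Dusp1 (1.18 ± 0.23), Junb (1.13 ± 0.24), Ier2 (1.12 ± 0.20) and Nr4a1 (1.11 ± 0.25). Btg2 alone of these was called in all 5 fits, and calls were lost for Junb without ESC-PGCLC replicate 1 (0.87) or pESC-PGCLC replicate 2 (0.99), Ier2 without ESC-PGCLC replicate 1 (0.87) and Nr4a1 without pESC-PGCLC replicate 2 (0.98). Fos (0.86 ± 0.21) and Jun (-0.52 ± 0.16) were not called and took opposite signs.

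Of 18 lysosome and autophagy genes 8 were called higher and none lower (44.4% and 0%, against 19.3% and 5.97% of all genes). Their median was 0.67 as deposited, 0.32 after centring and 0.35 after GC correction. The cathepsins Ctsz (7.73 and 5.46 against 35 and 36.4 TPM, difference 2.29 ± 0.19), Ctsb (1.59 ± 0.19) and Ctsd (1.11 ± 0.23) and the autophagy receptor Sqstm1 (1.52 ± 0.20) were among the 8 called, and Lamp1 was not called (0.50 ± 0.19). Ctsz and Ctsb were called in all 5 fits. Of 24 cholesterol synthesis genes 6 were called higher and 2 lower (25% and 8.33%, against 19.3% and 5.97% of all genes). Those higher included the enzymes Fdps (34.1 and 44.5 against 143 and 136 TPM, difference 1.81 ± 0.20), Ebp (1.73 ± 0.21) and Fdft1 (1.69 ± 0.19), and those lower were the sterol sensor Insig1 (292 and 357 TPM in ESC-PGCLCs against 78.3 and 100.5 TPM in pESC-PGCLCs, difference -1.85 ± 0.25, adjusted p = 0.000618, limma) and the transcription factor Srebf2 (-1.43 ± 0.22). These 5 were called in all 5 fits. Sqle, the squalene epoxidase, was not called (0.03 ± 0.21). Of the 3 interferon genes tested none was called, with Irf7 at -0.33 ± 0.17 and Bst2 at -0.25 ± 0.35.

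Proliferation genes had medians slightly above that of all genes. Of 23 DNA replication genes 7 were called higher and none lower (30.4% and 0%, against 19.3% and 5.97% of all genes), with a median of 0.42 as deposited, 0.06 after centring and 0.10 after GC correction. Calls numbered 3 higher and 0 lower after centring and 1 higher and 1 lower after GC correction. Cyclin E1, Ccne1, stood at 8.29 and 8.21 against 23.9 and 24.8 TPM (1.45 ± 0.24), and the helicase components Cdc45 at 22.3 and 25.5 against 65.1 and 66.4 TPM (1.42 ± 0.19) and Mcm5 at 27.3 and 26.3 against 70.8 and 75.2 TPM (1.41 ± 0.17), of which Cdc45 was called in all 5 fits. Pcna (0.77 ± 0.17) and Mcm2 (0.37 ± 0.22) were not called. Of 22 mitosis genes 5 were called higher and none lower (22.7% and 0%, against 19.3% and 5.97% of all genes), and 1 was called higher after centring. The 5 were Ccnb2 (237 and 235 against 755 and 767 TPM, difference 1.69 ± 0.17), Cdk1 (1.30 ± 0.19), Aurka (1.29 ± 0.15), Cdc20 (1.20 ± 0.25) and Birc5 (1.15 ± 0.16). Ccnb2 alone was called in all 5 fits. Ccnb1 (0.69 ± 0.19) and Mki67 (0.09 ± 0.20) were not called, and the list median was 0.49 as deposited, 0.14 after centring and 0.18 after GC correction.

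Replication-dependent histone genes, which lack poly(A) tails and lie in near-identical clusters, were called higher in 16 of 53 and lower in none (30.2% and 0%, against 19.3% and 5.97% of all genes). Their median was 0.53 as deposited, 0.17 after centring and -0.22 after GC correction, so the list as a whole lay below the median of all genes after GC correction. At a median GC content of 59.4% it is the richest in GC of the lists. The largest changes were those of the H2A genes Hist1h2ak (6.42 and 5 against 136 and 37.3 TPM, difference 3.44 ± 0.72), Hist1h2an (3.06 ± 0.46) and Hist1h2aj (2.94 ± 0.40), with the pESC-PGCLC libraries far apart from each other for Hist1h2ak, while the linker histones Hist1h1a (-0.11 ± 0.37) and Hist1h1b (0.74 ± 0.25) were not called. Of 17 p53 target genes 4 were called higher and none lower (23.5% and 0%, against 19.3% and 5.97% of all genes). The pro-apoptotic Bax stood at 8.4 and 6.24 TPM in ESC-PGCLCs against 62.2 and 68.4 TPM in pESC-PGCLCs (difference 3.01 ± 0.22, adjusted p = 4.91e-05, limma), the cell cycle inhibitor Cdkn1a at 7.66 and 9.28 against 24.2 and 28.3 TPM (1.53 ± 0.19), and Btg2 and Pmaip1 (1.15 ± 0.30) completed the 4. The call was lost for Pmaip1 without ESC-PGCLC replicate 1 (0.91) or pESC-PGCLC replicate 2 (0.72), and Bax and Btg2 were called in all 5 fits. The feedback target Mdm2 was not called (0.56 ± 0.16) and the list median was 0.16 as deposited, -0.19 after centring and 0.08 after GC correction.

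None of 19 chromatin repressor genes was called, with Ezh2 at 39.2 and 39.1 against 34.5 and 40.7 TPM (-0.06 ± 0.22) and Ehmt2 at 0.87 ± 0.30. Of 9 DNA methylation and demethylation genes 1 was called higher and none lower (11.1% and 0%, against 19.3% and 5.97% of all genes). This was the corepressor Trim28 (40.8 and 34.4 against 112 and 118 TPM, difference 1.60 ± 0.20), which was not called after GC correction. Dnmt1 (0.49 ± 0.22) and Tet1 (-0.11 ± 0.20) were not called. No two-cell-like gene passed the filter. Paternally expressed imprinted genes were called higher in 4 of 16 members tested and lower in none (25% and 0%, against 19.3% and 5.97% of all genes), with a median of 0.39 as deposited, 0.03 after centring and 0.15 after GC correction. In the stem cells the list summed to 222 and 299 TPM in pESCs against 520 and 501 TPM in ESCs, so it was lower in pESCs but not silent. Snrpn (chr7:59982495-60140219, mm10), the paternally read small nuclear ribonucleoprotein gene, stood at 14.1 and 10.9 TPM in ESC-PGCLCs against 94.7 and 105 TPM in pESC-PGCLCs (difference 2.91 ± 0.22, adjusted p = 5.12e-05, limma), while the pESC libraries held 6.8 and 9.46 TPM. Snrpn overlaps Snurf on the same strand, so reads of the pair cannot be separated.

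Igf2 (1.98 and 1.76 against 9.13 and 10.05 TPM, difference 1.88 ± 0.16), Sgce (0.297 and 0.0463 against 2.01 and 2.16 TPM, difference 1.41 ± 0.17) and Nnat (1.39 ± 0.35) rose too, and Mest was not called (16.2 and 16.8 against 28.8 and 29 TPM, difference 0.77 ± 0.21). Snrpn and Igf2 were called in all 5 fits and the call was lost for Nnat without ESC-PGCLC replicate 2 (1.10) or pESC-PGCLC replicate 1 (1.26). Of 10 maternally expressed genes 2 were called higher (20% and 0%, against 19.3% and 5.97% of all genes), H19 (5.9 and 7.59 against 36.3 and 31.1 TPM, difference 2.17 ± 0.21) and Slc22a18 (8.79 and 9.4 against 36.4 and 34.6 TPM, difference 1.86 ± 0.15), both in all 5 fits, and Igf2r was not called (-0.69 ± 0.17) but was called lower after centring (-1.05).

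On the X chromosome 96 of 632 genes tested (15.2%) were called higher and 39 (6.17%) lower, and the median was 0.22 as deposited, -0.13 after centring and 0.01 after GC correction. For autosomal genes it was 0.32 as deposited, -0.03 after centring and -0.03 after GC correction. Timm17b, a mitochondrial import gene, rose from 9.62 and 7.78 to 69.4 and 56 TPM (2.71 ± 0.23). Scml2 (-0.98 ± 0.19), a Polycomb-related germline gene, and Tfe3 (0.34 ± 0.24) were not called as deposited. The microRNA locus Mir3473a, which lies within Syap1, fell from 137 and 148 to 19.6 and 15 TPM (-2.99 ± 0.25). The microRNA locus Mir20b was listed at 0 in both ESC-PGCLC libraries and at 2.94 and 9.3 TPM in pESC-PGCLCs. The call of Mir20b was lost on leaving out 1 library, with limma adjusted p of 0.0745 without ESC-PGCLC replicate 1 and 0.0779 without ESC-PGCLC replicate 2 and 0.136 without pESC-PGCLC replicate 2. Xist, the RNA that silences an X chromosome, stood at 0.868 and 0.699 against 1.91 and 1.32 TPM (0.54 ± 0.23) and its antisense partner Tsix at 0.969 and 1.42 against 3.34 and 1.66 TPM (0.64 ± 0.30), and neither was called. Without strand information their reads cannot be told apart.

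The largest changes were mostly those of short or repeated RNA genes. The choice of the 10 increases required both pESC-PGCLC libraries to lie above the ESC-PGCLC libraries, with at least 10 TPM on average in pESC-PGCLCs. Mir7653, Mir6357, Mir7658 and Snord34 were at 0 in both ESC-PGCLC libraries and could only come out higher. Among the 10 largest increases, the loci Mir7653 (0 and 0 against 52 and 59.2 TPM), Mir704 (5.46 and 0 against 97.6 and 115 TPM), Mir6357 (0 and 0 against 14.7 and 35.8 TPM), Mir7658 (0 and 0 against 24.7 and 9.32 TPM), Mir3082 (32.8 and 19.2 against 404 and 382 TPM) and Snord34 (0 and 0 against 16.8 and 9.11 TPM) are at most 104 nt long, and each lies within another gene, so that their reads cannot be told from those of the host. The protein-coding genes among the 10 were Uqcrc1 and the glutathione transferase gene Gstm1 (8.14 and 6.34 TPM in ESC-PGCLCs against 108 and 105 TPM in pESC-PGCLCs, difference 3.72 ± 0.33, adjusted p = 8.53e-05, limma). The remaining ones, AY036118 (4.78 and 7.19 against 286 and 332 TPM) and CT010467.1 (4.35 and 6.48 against 139 and 154 TPM), overlap each other at chr17:39846353-39848827 (mm10), and CT010467.1 is annotated as ribosomal RNA.

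Among the 10 largest decreases, Mir3473b (87.9 and 80.4 against 2.13 and 1.93 TPM), Mir1934 (25.3 and 79.9 against 1.41 and 3.84 TPM), the 5S ribosomal RNA copy n-R5s196 (111 and 241 against 7.03 and 15.4 TPM) and the vault RNA copy Vaultrc5 (39.7 and 68.7 against 2.46 and 5.2 TPM) are short RNA genes. The protein-coding genes were Ctc1, a telomere replication factor (593 and 165 TPM in ESC-PGCLCs against 13.4 and 11 TPM in pESC-PGCLCs, difference -4.58 ± 0.57, adjusted p = 0.000424, limma), Rpap1 (38.6 and 103 against 2.97 and 5.35 TPM, difference -3.67 ± 0.70), Alox8 (-3.41 ± 0.33), Pcgf2 (-3.30 ± 0.27), Blnk (-3.19 ± 0.32) and Hspa1b. For Ctc1 and Rpap1 the 2 ESC-PGCLC libraries differed from each other by more than 2-fold, in opposite directions. Both ESC-PGCLC libraries lay above the pESC-PGCLC libraries, as the choice of these genes required. By annotated class, protein-coding genes made up 2143 of the 2894 higher calls but 316 of the 893 lower calls, and the unconfirmed transcript class TEC held 107 lower against 33 higher calls of 333 tested.

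Reads were counted without a stated strand, so called genes that overlap a neighbour called in the same direction cannot be told apart from it. Among the genes named, the neighbours on the opposite strand were Gm19553 for Pou5f1, Chpt1 for Sycp3, Dennd1c for Crb3, Mrpl46 for Mrps11, Sirt3 for Psmd13, Gm44346 for Hist1h2an, Gm44357 for Hist1h2aj, Gm20481 for Hspa1a, Nelfcd for Ctsz, Fdft1 for Ctsb, Gm27483 for H19, Gm42418 for AY036118, Gm42418 for CT010467.1, Jmjd8 for Mir3082, Blcap for Nnat, Gm23134 for Nnat, Mrnip for Sqstm1, Prdx2 for Junb and Ergic1 for Dusp1. On the same strand they were Snora64 for Rps2, Gm45808 for Bax, Gm43738 for Fdps, Gm49369 for Ctsd, Mir675 for H19, Gm38393 for Snrpn, Snurf for Snrpn, Gm49394 for Igf2, CT010467.1 for AY036118, Stub1 for Mir3082, Gm22574 for Cox7c and Gm43809 for Mrpl33. Trim28 overlaps Zbtb45, which was called lower.

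Across all named genes that were called, the call was lost after centring for 27 genes, Ifitm3, Alpl, Apoa2, Lama1, Acta2, Nr5a1, Gdf3, Pgk1, P4ha1, mt-Nd5, Cdk1, Aurka, Ctsd, Mir20b, Pkm, Dppa4, Utf1, Tgfbi, Pmaip1, Junb, Ier2, Dusp1, Nr4a1, Birc5, Cdc20, Gpi1 and Pfkm. After GC correction it was lost for 43 genes, Sall4, Ifitm3, Alpl, Sycp3, Rec8, Sycp1, Gata4, Apoa2, Lama1, Krt8, Acta2, Nr5a1, Cldn6, Crb3, Cldn7, Gdf3, Dhrs3, Ldha, Pgk1, P4ha1, Ccne1, Mcm5, Cdk1, Aurka, Cdkn1a, Ctsd, Trim28, Pkm, Dppa4, Utf1, Tgfbi, Slc3a2, Nr0b1, Nnat, Sqstm1, Junb, Ier2, Dusp1, Nr4a1, Birc5, Cdc20, Gpi1 and Pfkm.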

How the data were processed

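RNA was measured by RNA-seq in 10 libraries, 2 per group. The labels name a NEBNext Ultra kit, while the study's methods describe Smart-seq2 from sorted cells. The values are TPM as deposited by the authors, and the submitters' processing notes name HISAT2, Bowtie2, RSEM, DESeq2 and R 3.4.2 with build mm10. The strand setting of the counting is not given in the sources used here. TPM times exon length came out in whole multiples of 1 step for 95.7% to 96.4% of values under 300 recovered reads per library (tolerance 0.05), and these recovered reads set the depths. Of 36066 genes, 132 could not be matched to the GENCODE M21 annotation and 73 symbols belong to several genes. These, such as Aldoa and Ddit3, have no GC value.

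Differences were fitted with limma 3.58.1 (trended empirical Bayes, two-sided) on log2(TPM + 1) over all 10 libraries, with 5 residual degrees of freedom. The test was also run on simulated libraries with known changes, with and without a GC trend, and the outcome is not reported here. Alternatives were 3 scalings, other filters and pseudocounts, subsets of libraries, a replicate block, and, chosen after seeing the data, voom on recovered reads, a GC correction (loess span 0.3), exons of at least 200 nt and protein-coding genes alone. The members and gene lists were chosen with earlier results of these data known. Named genes were the first 2 members tested of each list, up to 3 called members with the largest non-overlapping change, and the 10 largest non-overlapping increases and decreases called under 2 scalings with at least 10 TPM. A further 47 genes were chosen after their values were seen. Some genes that this rule or choice named are not reported here. Predicted gene models were not named except where they overlap a named gene.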

Additional observations from a re-analysis of the deposited data

How the results depend on the processing

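The counts of genes called moved with scaling and filter. Median-centring gave 1607 higher and 1503 lower. Median of ratios gave 1872 higher and 1283 lower. Quantile normalization gave 1778 higher and 1505 lower. GC correction gave 1377 higher and 1425 lower. No minimum fold gave 5014 higher and 1475 lower. A minimum of 5 TPM gave 2142 higher and 576 lower. Protein-coding genes alone gave 2158 higher and 326 lower. Leaving out 1 library at a time gave 2647 to 2793 higher and 679 to 945 lower, where a lone library was assumed to vary like the other groups. The cause of these moves was not tested.

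The replicate numbers are shared between groups, but deviations of same-numbered libraries correlated at only 0.042, so the numbers were not taken as a pairing. With the replicate block 2903 genes were called higher and 903 lower.

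Differences changed sign under median-centring for Nanog (-0.23), Map2 (-0.27), Hoxd8 (-0.0048), Atp5a1 (-0.032), Rpl10 (-0.033), Rpl10a (-0.24), Mrpl1 (-0.29), Psma2 (-0.12), Mki67 (-0.26), Sqle (-0.33), Tfe3 (-0.020), Pecam1 (-0.0055). Differences changed sign under median of ratios for Nanog (-0.20), Map2 (-0.10), Atp5a1 (-0.0093), Rpl10 (-0.012), Rpl10a (-0.21), Mrpl1 (-0.26), Psma2 (-0.10), Mki67 (-0.22), Sqle (-0.30). Differences changed sign under quantile normalization for Nanog (-0.28), Map2 (-0.23), Atp5a1 (-0.027), Rpl10a (-0.10), Mrpl1 (-0.35), Mcm2 (-0.027), Mki67 (-0.30), Sqle (-0.37), Dppa3 (0.058). Differences changed sign under GC correction for Nanog (-0.11), Dnmt3a (-0.18), Dnmt3b (-0.23), Map2 (-0.25), Wt1 (-0.030), Epcam (-0.20), Id3 (-0.014), Hoxd8 (-0.33), Atp5a1 (-0.33), Rpl10a (-0.29), Mcm2 (-0.16), Mki67 (-0.17), Sqle (-0.34), Lamp1 (-0.027), Dnmt1 (-0.14), Tfe3 (-0.21), Pecam1 (-0.10). Differences changed sign under voom on recovered reads for Mrpl1 (-0.030), Sqle (-0.071). Differences changed sign under rescaling without mitochondrial and the 10 largest genes for Mrpl1 (-0.041), Mki67 (-0.010), Sqle (-0.080). On leaving out 1 library the sign changed for Nanog (-0.13 to 0.38), Foxa1 (-0.25 to 0.015), Map2 (-0.023 to 0.19), Lmo2 (-0.26 to 0.085), Hoxd1 (-0.59 to 0.16), Mrpl1 (-0.061 to 0.20), Hist1h1a (-0.27 to 0.047), Mki67 (-0.032 to 0.22), Ddit3 (-0.16 to 0.10), Sqle (-0.013 to 0.067), Bst2 (-0.74 to 0.24), Ezh2 (-0.18 to 0.056). None of these genes was called as deposited.

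No median was computed for the fibroblast list at a minimum of 5 TPM or for the mitochondrially encoded list once those genes were taken out.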
